A study of Mus musculus with 4 samples.

Results

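The 34 genes described here, of 46517 in the deposited expression table, serve glucose use and oxygen sensing. They encode the enzymes that turn glucose into pyruvate and lactate and the carriers that move glucose and lactate across the cell membrane. Others encode subunits of pyruvate dehydrogenase, which acts on pyruvate in mitochondria, its kinases, and the core of the oxygen-sensing pathway. Bnip3 is a target of that pathway. The genes were chosen by symbol and by no cutoff on measured values, though with earlier results of these data known. All 34 were found and passed the filter on low values. RNA came from LSK cells of C57BL/6 mice, sorted as Lin-, Sca-1+ and c-Kit+, a population rich in haematopoietic stem cells and their first descendants. The mice were 8 to 10 weeks old and were either Setd2f/f, with functional Setd2 and called controls below, or Setd2D/D, with Setd2 knocked out (2 libraries each), and the study's title sets the comparison in the quiescence and differentiation of adult stem cells. The sources used here do not name the Cre, the exons removed or the number of animals behind a library. No source ties replicates to different mice, and the p-values therefore cover the spread of these libraries alone, which may be technical.

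Glycolysis splits glucose into pyruvate, and lactate dehydrogenase then exchanges pyruvate and lactate. Haematopoietic stem cells live in marrow that is poor in oxygen and are known to lean on glycolysis while they are quiescent. When oxygen is present, the prolyl hydroxylase encoded by Egln1 marks HIF-1α, the product of Hif1a, and the VHL ubiquitin ligase then sends it for degradation. When oxygen is scarce, HIF-1α persists and raises transcription of glycolytic enzymes, glucose transporters, pyruvate dehydrogenase kinase and genes such as Bnip3.

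Summed over the group, the genes differed by less than the spread between replicates. In 17 of the 34 the genotypes did not overlap, beside 44.3% of all genes kept. These members came from every role but the hexokinases. Levels are in TPM, a length-normalised share of the transcripts in a library, and means are given ± SD (n = 2 libraries). Summed over all 34 genes the controls reached 5206 and 6001 TPM, and 5491 and 5830 TPM were summed from Setd2D/D. The 18 enzymes from hexokinase to lactate dehydrogenase made up most of this, at 4987 ± 550.1 TPM in controls against 5060 ± 225 TPM in Setd2D/D. The lowest and highest members differed greatly, from a mean over all libraries of 4.03 TPM for Slc16a3 to 1375 TPM for Gapdh. In bulk samples, fewer cells of a type and less RNA per cell cannot be told apart.

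**Figure D1:**
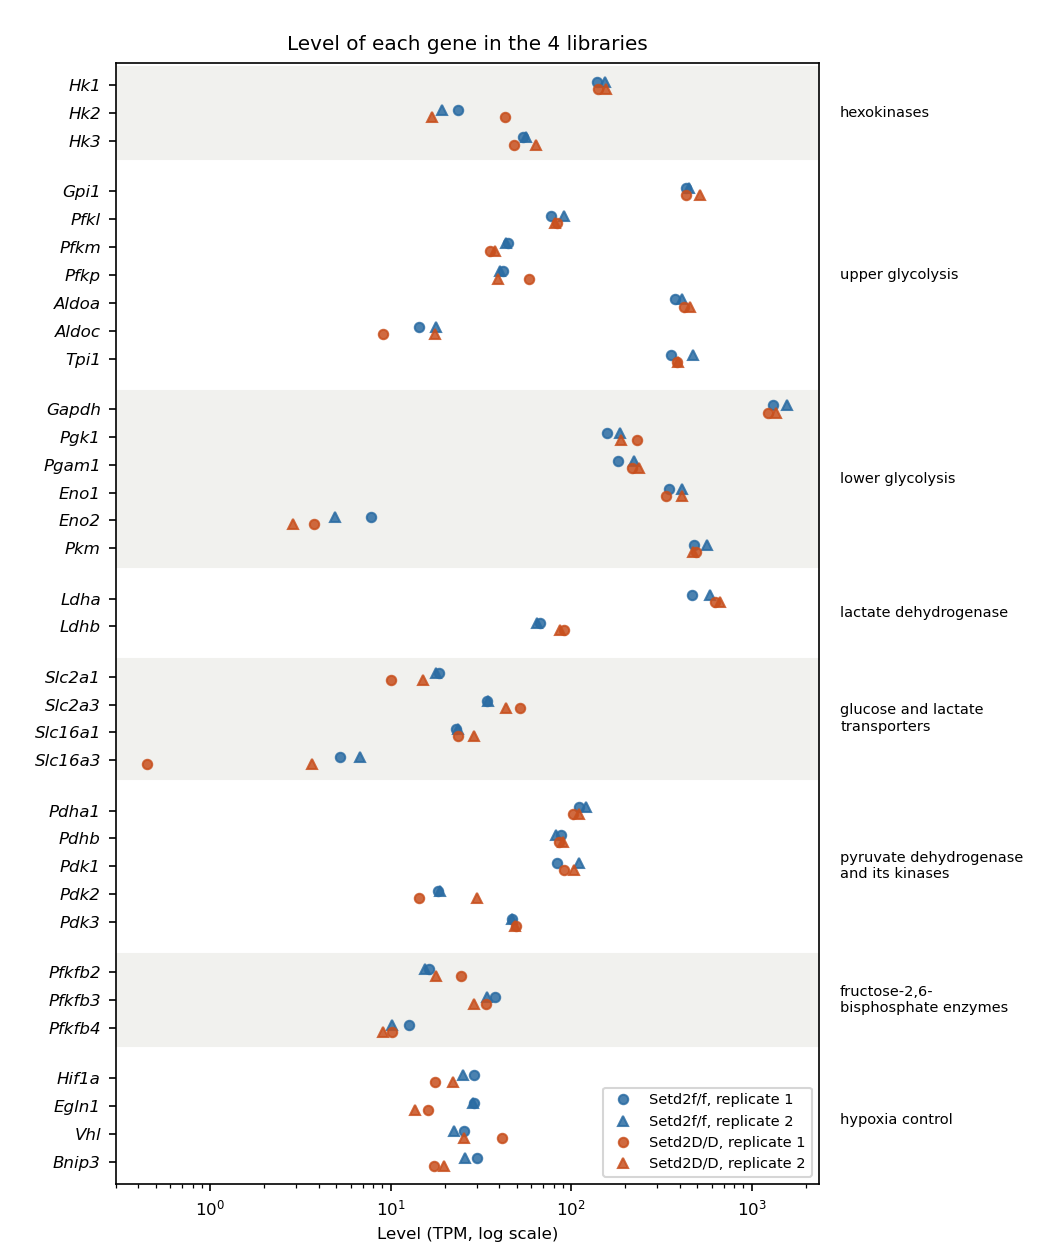
Level of each of the 34 genes in TPM on a log scale (horizontal axis), grouped by role, with blue symbols for Setd2f/f and orange symbols for Setd2D/D, circles for replicate 1 and triangles for replicate 2. Gapdh is highest, near 1375 TPM on average, the symbols of most enzymes lie close together, and Slc16a3 reaches 0.45 TPM in Setd2D/D replicate 1.

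In the limma fit on log2(TPM + 1), with Benjamini-Hochberg adjustment over the 14755 genes kept, 0 of the 34 genes passed an adjusted p of 0.05, where 0.0678% of all genes did (0.0203% higher, 0.0474% lower in Setd2D/D). An unadjusted p under 0.05 was reached by 4 of them (Ldhb and Slc2a3 higher, Egln1 and Bnip3 lower in Setd2D/D), and over all genes by 11.2% (4.17% higher, 6.99% lower), so that the members' share was near the background. The authors' deposited table placed 2 of the 34 past an FDR of 0.05, Ldhb higher and Egln1 lower, against 3.15% of its genes, 1.51% higher and 1.64% lower. The limma log2 change, Setd2D/D minus Setd2f/f, was above 0 for 17 genes and below 0 for 17, with a median of 0.0065 beside -0.063 over all genes. In 17 of the 34 genes the libraries of the genotypes did not overlap, 8 with both Setd2D/D libraries higher and 9 with both lower, and over all genes this was so for 44.3%, 16.8% higher and 27.6% lower. After rescaling the libraries the split became 11 higher and 8 lower with TMM or median-of-ratios factors and 12 and 8 with quantiles. The split over all genes moved the same way: of the genes without overlap, 47.1% of the members and 37.8% of all genes were higher unscaled, against 57.9% and 47.4% with TMM, 57.9% and 48.5% with median-of-ratios and 60% and 48.2% with quantile scaling. For a single gene the smallest p that an exact permutation of these 4 libraries allows is 0.33, 2-sided. Setd2, the gene knocked out, did not pass limma's adjusted threshold either (adjusted p = 0.329), so a gene not called may still differ.

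**Figure D2:**
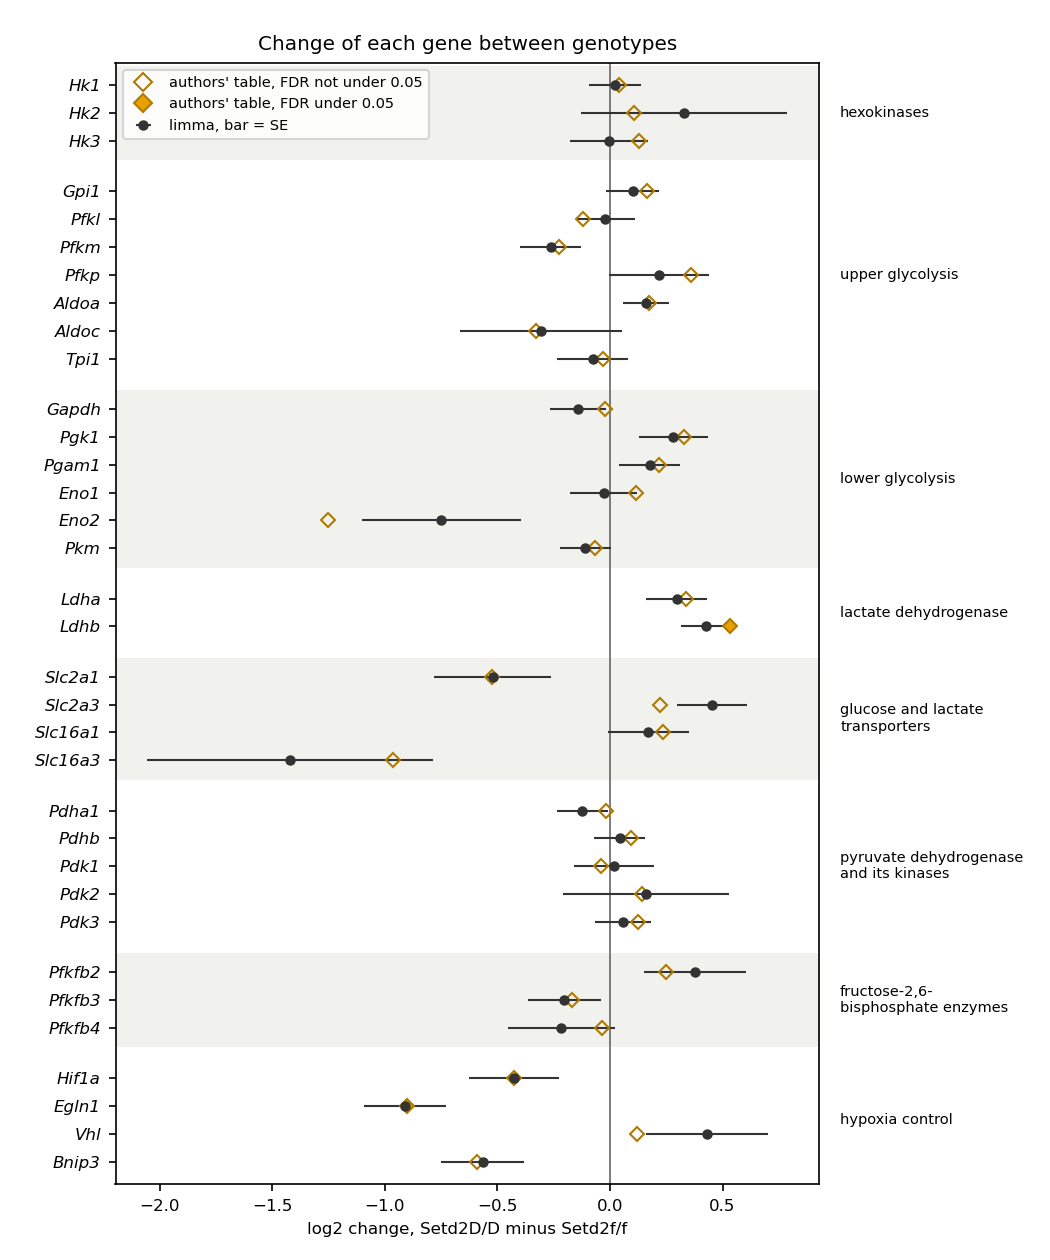
Log2 change of each gene, Setd2D/D minus Setd2f/f (horizontal axis): black points are limma on log2(TPM + 1) with bars of 1 SE, and diamonds are the authors' deposited values, filled where their FDR is under 0.05. Most points lie close to 0, Egln1 is at -0.91 by limma and the filled diamonds are Egln1 and Ldhb.

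The oxygen-sensing genes held the member with the smallest p. Egln1, the hydroxylase that marks HIF-1α (ENSMUSG00000031987, GRCm38 chromosome 8, 124908587 to 124949324, minus strand), was at 29.0 and 28.8 TPM in controls against 16.2 and 13.7 TPM in Setd2D/D. Both Setd2D/D libraries were thus far below both Setd2f/f libraries, whose values nearly coincided. The level was 28.9 ± 0.156 TPM in Setd2f/f and 15.0 ± 1.73 TPM in Setd2D/D, 1.93-fold lower. Its limma log2 change came to -0.91 with an SE of 0.18 and an adjusted p of 0.281, and Egln1 ranked 231 of 14755 genes by p. The authors' deposited table gives Egln1 -0.90 on the log2 scale and an FDR of 1.85e-06.

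Hif1a, the oxygen-regulated subunit of the factor (ENSMUSG00000021109, chromosome 12), was at 28.9 and 25.2 TPM in controls against 17.6 and 22.3 TPM in Setd2D/D. Both Setd2D/D libraries were below both controls, with the lower value in replicate 1. By limma the log2 change came to -0.43 with an SE of 0.20 (adjusted p = 0.497), and the authors' deposited table gives -0.43 with an FDR of 0.0554. Without Setd2D/D replicate 1 the limma change of Hif1a was -0.26. Bnip3, a mitophagy receptor gene and known HIF-1 target (ENSMUSG00000078566, chromosome 7), was at 30.2 and 25.8 TPM in controls against 17.4 and 19.8 TPM in Setd2D/D, again without overlap. Its limma log2 change came to -0.57 with an SE of 0.18 (adjusted p = 0.415), and the authors' deposited table gives -0.59 with an FDR of 0.246. Vhl, the substrate receptor of the ubiquitin ligase, was at 25.6 and 22.4 TPM in controls against 41.7 and 25.6 TPM in Setd2D/D. Replicate 1 alone was high, and Setd2D/D replicate 2 lay inside the range of the controls. For Vhl the limma log2 change was 0.43 (adjusted p = 0.589), and 0.091 without Setd2D/D replicate 1. The authors' deposited table gives Vhl 0.12 with an FDR of 0.888.

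The promoter windows of these genes were searched for a sequence feature. It was no criterion of the choice, but the list holds known HIF-1 targets, so choice and feature are not independent. The core of the hypoxia response element, the site bound by HIF, was searched as ACGTG or GCGTG on both strands, in windows from 250 bases before to 50 after each RefSeq start on GRCm38. The palindrome CACGTG counts on each strand. A window was given for 33 of the 34 genes, and 29 of these (87.9%) held at least 1 core, against 66.9% of the 9728 kept genes with a window and 46.7% of all 27025 genes of the promoter table. The narrower ACGTG was present for 22 of the 33 (66.7%), against 29.3% of the kept genes and 21.8% of all. Among 69 further genes of the same pathways, described below, 59 had a window. Of these, 71.2% held either core and 37.3% held ACGTG. Counted by window, which allows for genes with several starts, ACGTG was in 53.1% of the members' 49 windows and 25.3% of the kept genes' 12412. The median GC content was 62% in the members' windows and 60.3% in those of the kept genes, with a median of 20 CG dinucleotides in both. A match is a stretch of letters and not a measured binding site.

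Stretches upstream of annotated exons are printed for the genes on which the results turn, as examples of the windows searched, with the core in capitals. They are 5′ to 3′ on the gene's strand from RefSeq promoters on GRCm38.p6: Egln1 at chr8:124949325-124949504 (minus), Bnip3 at chr7:138909520-138909756 (minus), Ldha, from the first of its windows, at chr7:46845554-46845803 (plus) and Ldhb at chr6:142507958-142508207 (minus).
Egln1: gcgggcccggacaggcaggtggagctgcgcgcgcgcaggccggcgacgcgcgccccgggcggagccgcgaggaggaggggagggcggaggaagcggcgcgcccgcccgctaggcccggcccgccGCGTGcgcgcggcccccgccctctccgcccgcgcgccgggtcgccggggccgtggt
Bnip3: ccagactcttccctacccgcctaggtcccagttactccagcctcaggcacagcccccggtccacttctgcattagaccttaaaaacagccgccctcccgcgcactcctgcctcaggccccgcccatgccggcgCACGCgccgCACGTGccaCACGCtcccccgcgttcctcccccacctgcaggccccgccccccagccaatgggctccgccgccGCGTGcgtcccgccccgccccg
Ldha: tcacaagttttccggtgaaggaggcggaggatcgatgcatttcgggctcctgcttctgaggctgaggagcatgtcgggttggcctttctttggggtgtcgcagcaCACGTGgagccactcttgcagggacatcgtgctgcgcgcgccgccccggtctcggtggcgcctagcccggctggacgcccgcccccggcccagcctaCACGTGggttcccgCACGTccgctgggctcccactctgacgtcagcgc
Ldhb: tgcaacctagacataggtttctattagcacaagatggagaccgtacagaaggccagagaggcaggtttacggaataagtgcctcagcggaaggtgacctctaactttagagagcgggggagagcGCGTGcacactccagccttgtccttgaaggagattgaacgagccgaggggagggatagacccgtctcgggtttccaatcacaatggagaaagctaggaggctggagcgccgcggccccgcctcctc
The printed stretches are shorter than the windows searched, since they stop at the first annotated exon. In the whole windows Bnip3 has 5 matches, Egln1 2 (1 of them ACGTG and outside the print), Ldhb 1, and Ldha 7 in the window printed in part and 2 in its other window.

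Within each family of membrane carriers the changes had opposite signs. In none of the 4 genes did the libraries overlap, which was also so for 44.3% of all genes kept. Slc2a3, which encodes the glucose transporter GLUT3 (ENSMUSG00000003153, chromosome 6), was at 34.2 and 34.7 TPM in controls against 52.0 and 43.4 TPM in Setd2D/D. Both Setd2D/D libraries were above both controls, replicate 1 more so. The limma log2 change came to 0.45 with an SE of 0.15 (adjusted p = 0.423), while the authors' deposited table gives 0.22 with an FDR of 0.606. Slc2a1, which encodes the transporter GLUT1, was at 18.6 and 17.8 TPM in controls against 10.0 and 15.2 TPM in Setd2D/D. It went the other way from Slc2a3, with a limma log2 change of -0.52 and an SE of 0.26 (adjusted p = 0.519). The authors' deposited table gives Slc2a1 -0.52 with an FDR of 0.272. Without Setd2D/D replicate 1 the limma change of Slc2a1 was -0.24. As a share of the summed TPM of the pair, which TPM allows because it is per length, Slc2a1 held 35.2% and 33.9% in controls against 16.2% and 25.9% in Setd2D/D. The share was 34.6% ± 0.910 in Setd2f/f and 21.1% ± 6.90 in Setd2D/D, without overlap.

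Slc16a3 encodes the lactate exporter MCT4 of glycolytic cells, and its limma change was the lowest of the 34. It was at 5.22 and 6.77 TPM in controls against 0.45 and 3.66 TPM in Setd2D/D. The Setd2D/D libraries differed from each other by 8.13-fold, the widest replicate gap among the members. The limma log2 change came to -1.42 with an SE of 0.63 (adjusted p = 0.486). Leaving out Setd2D/D replicate 1 gave -0.58, and leaving out Setd2D/D replicate 2 gave -2.26. The authors' deposited table gives Slc16a3 -0.96 with an FDR of 0.667. Slc16a1, which encodes the more broadly used lactate carrier MCT1, was at 23.0 and 23.5 TPM in controls against 23.8 and 29.0 TPM in Setd2D/D. The genotypes were thus only narrowly apart, with a limma log2 change of 0.17 and an SE of 0.18 (adjusted p = 0.757). With 1 library left out, the change of Slc16a1 was as low as 0.033. Of the pair's summed TPM, Slc16a3 held 20.5% ± 2.72 in Setd2f/f and 6.54% ± 6.62 in Setd2D/D. That share was lower in both Setd2D/D libraries, at 1.86% and 11.2%.

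**Figure D3:**
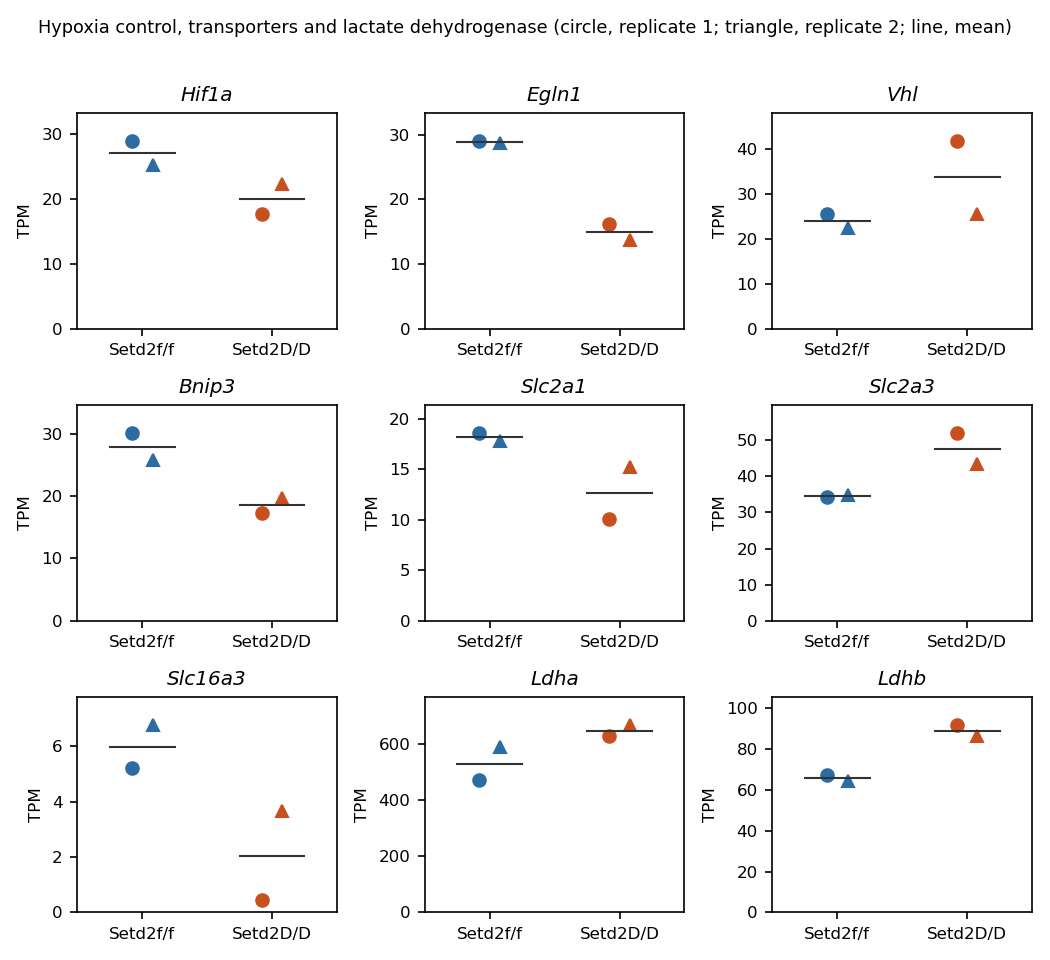
Level in TPM (vertical axis, from 0) of Hif1a, Egln1, Vhl, Bnip3, 3 carriers and the lactate dehydrogenase genes in each library. Circles are replicate 1, triangles are replicate 2 and a line marks each genotype's mean. The genotypes do not overlap for Egln1 (28.9 against 15.0 TPM) or Ldhb (66.0 against 89.1 TPM), whereas for Vhl Setd2D/D replicate 2 sits among the controls.

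The lactate dehydrogenase subunits were both higher in Setd2D/D. Ldhb, the subunit of the isoenzymes that favour lactate use (ENSMUSG00000030246, chromosome 6, 142490249 to 142507957), was at 67.4 and 64.6 TPM in controls against 91.8 and 86.4 TPM in Setd2D/D. The replicates lay close together and the genotypes did not overlap, with 66.0 ± 1.97 TPM against 89.1 ± 3.84 TPM, a ratio of 1.35. By limma the log2 change came to 0.43 with an SE of 0.11 (adjusted p = 0.372), and the authors' deposited table gives 0.53 with an FDR of 0.0177. Ldha, the subunit of the isoenzymes that favour lactate production and a classical HIF-1 target, was at 470.1 and 587 TPM in controls against 626 and 665 TPM in Setd2D/D. Its control libraries differed from each other by more than the gap between the higher control and the lower Setd2D/D library. The limma log2 change of Ldha came to 0.30 with an SE of 0.14 (adjusted p = 0.487), and the authors' deposited table gives 0.34 with an FDR of 0.160. Without Setd2f/f replicate 1, the lower control, the limma change of Ldha was 0.14. Ldhb made up 11.2% ± 1.86 of the summed TPM of both in controls against 12.1% ± 0.920 in Setd2D/D, with overlapping libraries.

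The hexokinases, which trap glucose in the cell as glucose 6-phosphate, did not separate the genotypes. Hk1, the broadly expressed form, was the most abundant, at 140.0 and 153.9 TPM in controls against 141.6 and 156.6 TPM in Setd2D/D (limma log2 change 0.021, adjusted p = 0.964). Hk3, the form of myeloid cells, was at 54.5 and 56.5 TPM in controls against 48.1 and 63.5 TPM in Setd2D/D. Hk2, the inducible form and a HIF-1 target, was at 23.8 and 19.3 TPM in controls against 43.1 and 17.0 TPM in Setd2D/D, where the libraries stood on opposite sides of the controls. In Setd2D/D replicate 1 Hk2 held 18.5% of the hexokinase TPM, against 7.15% in replicate 2 and 10.9% and 8.39% in Setd2f/f.

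In the following steps down to triose phosphate, most enzymes overlapped between genotypes. Gpi1, which converts glucose 6-phosphate into fructose 6-phosphate, was at 434.3 and 451.4 TPM in controls against 435.7 and 516.8 TPM in Setd2D/D (limma log2 change 0.10, adjusted p = 0.785). Aldoa, the main aldolase here, was at 394 ± 26.6 TPM in controls against 440.3 ± 25.4 TPM in Setd2D/D, with both Setd2D/D libraries higher. Aldoc, a minor aldolase, was at 16.1 ± 2.48 and 13.4 ± 6.08 TPM, and Tpi1, triose phosphate isomerase, at 415 ± 82.0 and 389 ± 2.07 TPM. Phosphofructokinase, the committed step of glycolysis, is built from 3 gene products. Pfkl was the most abundant, at 84.2 ± 10.0 TPM in controls against 82.7 ± 1.48 TPM in Setd2D/D. Pfkm, the muscle-type subunit, was at 44.5 and 43.8 TPM in controls against 35.4 and 37.9 TPM in Setd2D/D, lower in both (limma log2 change -0.26, SE 0.14, adjusted p = 0.527). Pfkp was at 42.0 and 40.6 TPM in controls against 58.5 and 39.5 TPM in Setd2D/D, high in replicate 1 alone. The share of Pfkm in the family was 26.1% ± 1.61 in Setd2f/f and 21.9% ± 2.77 in Setd2D/D. Whether counting used strand is not stated, and Pfkm overlaps Senp1 (between 49.9 and 72.4 TPM) and Pfkp overlaps Pitrm1 (between 54.0 and 64.0 TPM) on the opposite strand, so that, without strand, reads from any stretch the exons of a pair share would be ambiguous; the extent of shared exons was not measured. Gapdh likewise overlaps Iffo1 (between 24.9 and 47.3 TPM), and Pfkfb2 overlaps Yod1 (between 4.33 and 6.54 TPM). In all, 10 of the 34 genes have an overlapping gene above 1 TPM in a library. Slc2a3 overlaps a processed pseudogene on its own strand, Gm4482, at up to 2.43 TPM.

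The later steps of glycolysis, which yield ATP and pyruvate, carried the highest levels. Gapdh, the glyceraldehyde phosphate dehydrogenase often used as a reference gene, was at 1319 and 1571 TPM in controls against 1236 and 1373 TPM in Setd2D/D, with overlap (limma log2 change -0.14, adjusted p = 0.695). Pkm, pyruvate kinase, was at 525 ± 61.0 and 485 ± 14.0 TPM, and its M1 and M2 splice forms are not separated in a table of genes. Eno1, the main enolase, was at 380.2 ± 43.9 and 373 ± 53.3 TPM. Pgk1, phosphoglycerate kinase, was at 172 ± 19.8 TPM in controls against 209.7 ± 30.4 TPM in Setd2D/D, where replicate 2 (188 TPM) exceeded the higher control (186 TPM) only narrowly. Eno2, the neuronal enolase, was low, at 7.83 and 4.89 TPM in controls against 3.75 and 2.87 TPM in Setd2D/D, below both controls (limma log2 change -0.75, SE 0.35, adjusted p = 0.499). The authors' deposited table gives Eno2 -1.25 with an FDR of 0.737, and the limma change was -0.46 without Setd2f/f replicate 1. Pgam1, phosphoglycerate mutase, was at 202 ± 28.8 and 227 ± 14.8 TPM, but the split with a copy is uncertain. The processed pseudogene Pgam1-ps2 was listed at 115 and 112 TPM in controls against 144 and 128 TPM in Setd2D/D, up to 66.4% of the level of Pgam1. Copies were sought by name alone, as a member's symbol with a pseudogene suffix, and Eno1b. Of 9 copies found in this way, Pgam1-ps2 was the 1 above 1 TPM. Copies of any member under other names were not looked for.

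Pyruvate enters mitochondria and is turned into acetyl-CoA by the pyruvate dehydrogenase complex, which the PDK kinases switch off. Pdha1 and Pdhb, the subunits of its first enzyme, were at 116 ± 8.00 and 85.4 ± 3.78 TPM in controls against 106 ± 5.52 and 88.0 ± 2.65 TPM in Setd2D/D. Pdha1 was at 110.1 and 121.4 TPM in controls against 102.3 and 110.1 TPM in Setd2D/D, with overlap (limma log2 change -0.12, adjusted p = 0.720). Pdk1, the HIF-1-responsive kinase, was the most abundant kinase, at 96.9 ± 19.1 TPM in controls against 97.3 ± 9.12 TPM in Setd2D/D. Pdk3 was nearly constant, at 47.3 and 46.9 TPM in controls against 49.3 and 48.8 TPM in Setd2D/D. Pdk2 was at 18.4 and 18.8 TPM in controls against 14.4 and 30.1 TPM in Setd2D/D, on both sides of the controls. The pyruvate dehydrogenase genes and their kinases thus gave no member with a limma p under 0.05.

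The PFKFB enzymes make and remove fructose 2,6-bisphosphate, a strong activator of phosphofructokinase. Pfkfb3, the inducible form with high kinase activity, was at 38.1 and 34.2 TPM in controls against 33.6 and 29.0 TPM in Setd2D/D (limma log2 change -0.20, adjusted p = 0.668). Pfkfb2 was at 16.4 and 15.5 TPM in controls against 24.7 and 17.8 TPM in Setd2D/D, above both controls, and Pfkfb4 was at 11.4 ± 1.68 and 9.65 ± 0.778 TPM. Pfkfb2 held 25.1% ± 1.01 of the family's TPM in controls against 33.96% ± 2.98 in Setd2D/D. Pfkfb3 held 56.9% ± 0.210 and 50.5% ± 2.0, and neither share overlapped between genotypes. Shares within a family are not independent, and the levels of 44.3% of all genes kept did not overlap either. The limma adjusted p-values of the 3 genes lay between 0.576 and 0.769.

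**Figure D4:**
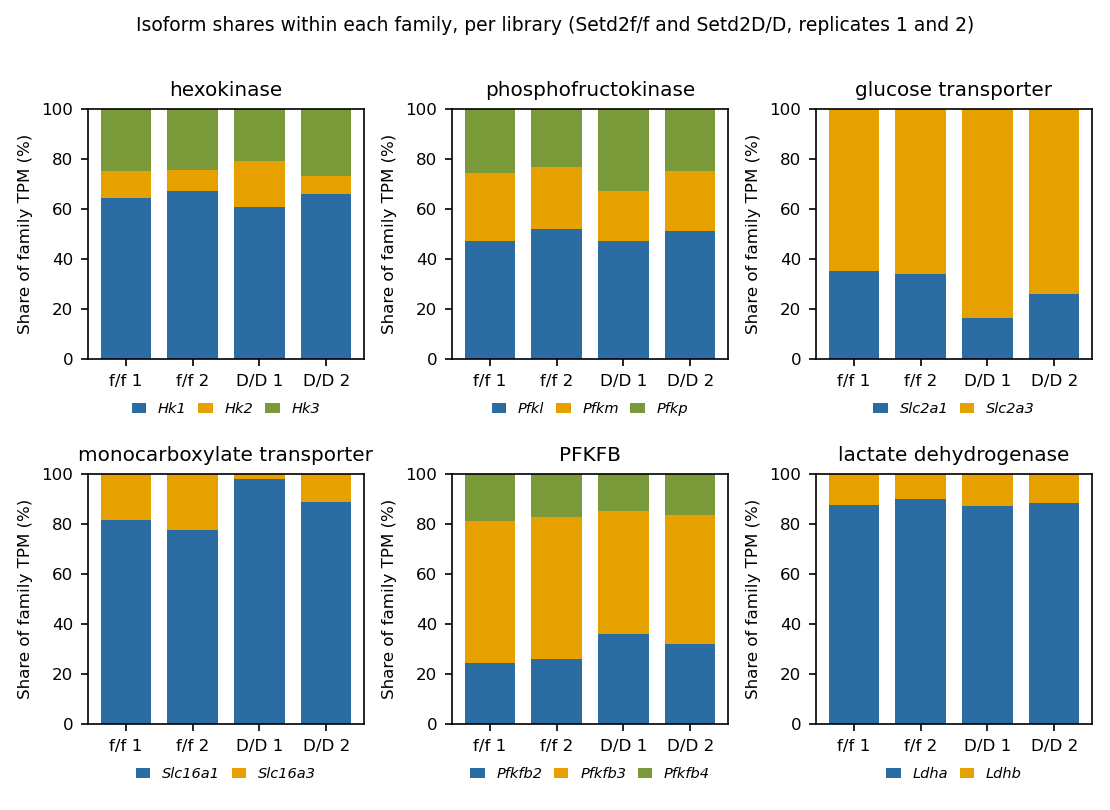
Share of each isoform in the summed TPM of its family (vertical axis, percent) in each library, with f/f 1 and 2 for the Setd2f/f replicates and D/D 1 and 2 for the Setd2D/D replicates. Slc2a1 averages 34.6% in controls against 21.1% in Setd2D/D, and Slc16a3 20.5% and 6.54%, of their pairs, while the lactate dehydrogenase shares overlap.

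The replicates of the 34 genes were somewhat closer than those of all genes, but the sets were not matched for level. The members' means begin at 4.03 TPM, whereas genes were kept from TPM 1 in 2 libraries. The median absolute log2 difference between replicates was 0.17 for the members and 0.20 for all genes kept in Setd2f/f, and 0.21 and 0.29 in Setd2D/D. Setd2D/D replicate 1 was the shallowest library, with 0.583 times the estimated depth of the deepest, Setd2f/f replicate 2, from the worth of 1 read, which was about 0.031 TPM for a transcript of 2000 nt there and 0.018 TPM in that control. It also correlated least with the other libraries across genes (r between 0.910 and 0.913, where genes are not independent replicates). The values of Hif1a, Slc2a1, Slc16a3 and Vhl without it are given above.

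Among 69 further genes of the same pathways, 52 passed the filter and 0 passed limma's adjusted threshold, while an unadjusted p under 0.05 was reached by 3 higher and 4 lower (7 of 52, beside 11.2% of all genes). Of the 63 that the authors' deposited table lists, it calls 3 higher and 3 lower, all 6 among the hypoxia targets, beside 3.15% of all its genes. Ndrg1, a stress-response gene and known HIF-1 target, was at 66.5 and 43.3 TPM in controls against 19.9 and 17.2 TPM in Setd2D/D. Both Setd2D/D libraries were far below both controls (limma log2 change -1.49, SE 0.25, adjusted p = 0.242), and the authors' deposited table gives an FDR of 1.49e-19. Other targets were lower too, with Gbe1, the glycogen branching enzyme, at 23.1 ± 3.52 and 14.5 ± 1.79 TPM and P4ha1, a collagen prolyl hydroxylase subunit, at 27.2 ± 1.17 and 16.6 ± 6.65 TPM. Targets above the controls were Cited2, which limits HIF activity (47.5 ± 3.37 and 65.4 ± 5.01 TPM), Tfrc, the transferrin receptor (52.9 ± 0.849 and 68.9 ± 6.05 TPM), and Mxi1, a MYC antagonist (14.8 ± 1.34 and 21.0 ± 4.18 TPM). The limma log2 changes were -0.64 for Gbe1, -0.73 for P4ha1, 0.45 for Cited2, 0.37 for Tfrc and 0.46 for Mxi1, with limma adjusted p-values between 0.397 and 0.512. Without Setd2D/D replicate 1 the change of P4ha1 was -0.34 and that of Mxi1 0.27. The hypoxia targets therefore held members on both sides, 11 of the 17 tested with a change above 0 and 6 below. Mpc1, part of the mitochondrial pyruvate carrier, was at 79.9 ± 3.99 TPM in controls against 61.3 ± 8.36 TPM in Setd2D/D (limma log2 change -0.38, adjusted p = 0.446, and -0.25 without Setd2D/D replicate 1). Pklr, the pyruvate kinase of liver and red cells, was at 1.84 and 1.45 TPM in controls against 16.4 and 5.95 TPM in Setd2D/D (limma log2 change 2.06, adjusted p = 0.346).

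Marker genes of other blood cell types differed between the groups in the same libraries. In the counts below, higher or lower means both Setd2D/D libraries above or below both controls. Of all genes kept, 16.8% were higher and 27.6% lower in this sense. Setd2 itself was at 78.9 and 68.0 TPM in controls against 43.4 and 49.5 TPM in Setd2D/D, over the whole gene. Its limma log2 change came to -0.65 with an SE of 0.15 (adjusted p = 0.329). The authors' deposited table gives Setd2 -0.73 with an FDR of 5.84e-06. The 5 markers listed for LSK cells were Ly6a and Kit, which encode the gate's Sca-1 and c-Kit, with Ptprc, Cd34 and Flt3. All were expressed in all 4 libraries. They summed to between 1524 and 1609 TPM in controls, and between 1211 and 1282 TPM in Setd2D/D. Of these, Kit was higher in both Setd2D/D libraries (224 and 249 TPM against 301 and 285 TPM), and Ly6a (128 and 124 against 46.5 and 80.6 TPM), Cd34 (773 and 747 against 520.4 and 476 TPM) and Flt3 (332 and 279 against 276 and 223 TPM) were lower in both, while Ptprc overlapped. The 14 erythroid markers summed to between 482 and 621 TPM in Setd2f/f and between 1058 and 1159.7 TPM in Setd2D/D, with 12 of 14 higher, and Alas2 was at 0 in Setd2D/D replicate 1. The 13 granulocyte-monocyte markers summed to between 2459 and 2999 TPM and between 3281 and 4871 TPM, with 7 higher and 1 lower. The 8 B lineage markers summed to between 282 and 513 TPM and between 179 and 249 TPM, with 5 lower and none of them at 0 in a library. The 7 T and NK markers summed to 132 TPM in both controls and to 79.9 and 122 TPM in Setd2D/D, with 0 higher and 2 lower. Most came from Nkg7, which overlapped (114 and 126 against 78.7 and 116 TPM). Cd4 was lower in both Setd2D/D libraries (14.6 and 4.15 against 0 and 2.29 TPM), and Cd3e did not exceed 0.57 TPM. The 8 endothelial and stromal markers summed to between 98.8 and 125 TPM in controls and between 84.5 and 90.5 TPM in Setd2D/D, mostly from Pecam1, with Emcn lower in both (42.9 and 24.3 against 5.68 and 11.7 TPM) and Cdh5 at most 0.56 TPM. The 6 megakaryocyte markers summed to between 65.2 and 75.1 TPM in controls and between 90.5 and 95.1 TPM in Setd2D/D, with 3 higher and 1 lower. The part of these differences in the values of the 34 genes was not tested.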

How the data were processed

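LSK cells of 2 Setd2f/f and 2 Setd2D/D libraries were compared. The authors deposited TPM values for 46517 genes and a comparison of 23955 genes with a fold change as a ratio, log2 change, mean log2 CPM, an F score and an FDR. Per the submitters' processing notes, the authors used cutadapt, RSEM, edgeR and mm10, with neither role nor version stated. Fields shifted by a comma in a gene name were joined again in 5 rows of the TPM table and 2 of the comparison. Neither table holds read totals, so relative depth was estimated from the commonest smallest value of genes with 1 short transcript. The 14755 genes reaching TPM 1 in 2 or more libraries were transformed to log2(TPM + 1) and fitted with limma 3.58.1 in R 4.3.3, with 1 genotype term, an abundance trend and 2-sided p-values, adjusted by Benjamini-Hochberg over all of them (threshold 0.05). Changes on this scale understate those of low genes. The fit was also run on simulated data as a self-test, and no outcome of that run is used here. Coordinates are from GENCODE M21 on GRCm38 (mm10), and promoters from RefSeq.

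The genes, lists and naming rule were chosen with earlier results of these data known. The rule gave per-library values to members past either threshold, the 3 largest rises and falls and the most abundant member of each role, and named the 6 other pathway genes with the smallest p and those past the authors' FDR. The genes under other observations, the copies, the overlapping genes and members outside the rule were added after their values were seen. Alternatives tried were a pseudocount of 0.1 or 0.5, no filter, a minimum of TPM 5, 3 rescalings, other variance moderation, a replicate block, each library left out, other FDR thresholds and the ACGTG core alone.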

Additional observations from a re-analysis of the deposited data

How the results depend on the processing

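Under 14 alternative settings 0 of the 34 genes passed limma's adjusted threshold, the smallest adjusted p being 0.181, and 21 of the 34 kept the sign of their change in every setting run. Over all genes limma called 10, 3 with a pseudocount of 0.1, 19 with no abundance trend, 0 with no filter and 0 with the replicate block, and 0 when any 1 library was left out, with the lone library of its genotype assumed to vary like the other pair. The labels do not say that equal replicate numbers share a source, and the deviations of the replicates numbered 1 correlated at r = 0.041 over genes. With the replicate block no call among the members was made or lost. The median change of the members lay between -0.079 and 0.089 when 1 library was left out. The authors' deposited table places 1 member past an FDR of 0.01. The change of Hk1 lay between -0.051 and 0.093 and that of Gpi1 between -0.023 and 0.22 with 1 library left out, so their direction rests on single libraries. The cause of these shifts was not tested. Leaving out 1 library moved Egln1 between -1.02 and -0.80, Bnip3 between -0.67 and -0.46, Ldhb between 0.38 and 0.47 and Slc2a3 between 0.32 and 0.58. The number of libraries and the low depth of Setd2D/D replicate 1 limit what can be said of genes at a few TPM.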

Other observations

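In the pentose phosphate branch 1 of 7 measured genes was higher and 2 were lower in both Setd2D/D libraries. In gluconeogenesis 0 of 4 were higher and 2 were lower. Over all genes kept, 16.8% were higher and 27.6% lower in this way. The pentose phosphate branch, which supplies NADPH and ribose, had 7 measured genes with limma log2 changes between -0.29 and 0.23. Its first enzyme, G6pdx, was at 58.7 and 62.3 TPM in controls against 67.8 and 74.1 TPM in Setd2D/D, above both controls, and Pgls, the next enzyme, was at 131 and 148 TPM and at 109 and 119 TPM, below both. Of the gluconeogenic genes Fbp2, Pck1 and G6pc were listed at 0 in all 4 libraries, while the mitochondrial Pck2 was at 62.6 ± 5.63 TPM in controls against 53.8 ± 5.11 TPM in Setd2D/D. Pcx, pyruvate carboxylase, was at 1.79 ± 0.156 and 0.985 ± 0.785 TPM, lower in both Setd2D/D libraries, and Fbp1, fructose bisphosphatase, at 16.4 ± 11.2 and 20.3 ± 9.41 TPM, with overlap.

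Egln2, a relative of Egln1, was at 35.7 and 36.9 TPM in controls against 41.9 and 35.5 TPM in Setd2D/D, and Egln3 at 23.4 and 22.9 TPM and at 19.1 and 15.6 TPM. Arnt, the constant partner of HIF-1α, was at 29.4 ± 2.10 and 31.6 ± 3.03 TPM. The difference between these genes in their response was not tested. The hypoxia targets Vegfa and Car9 were at 18.7 ± 2.94 and 17.2 ± 0.856 TPM in controls against 25.5 ± 4.76 and 19.6 ± 9.62 TPM in Setd2D/D.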
